A study of Homo sapiens with 16 samples.

Results

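The HOXD cluster on chromosome 2 holds 9 homeobox genes, HOXD13, HOXD12, HOXD11, HOXD10, HOXD9, HOXD8, HOXD4, HOXD3 and HOXD1, in a stretch of 120 kb. Its peaks were taken as every entry of 6 deposited peak lists that overlaps chromosome 2 from 176.20 to 177.80 Mb (hg19), a window of 1.6 Mb. The window was divided into the HOXD gene interval from 176.94 to 177.06 Mb, the flank on its centromeric side and the flank on its telomeric side. It held 118 of the 114213 peaks in the 6 lists on chromosomes 1 to 22 and X. These were 1 BORIS, 20 SMC1 and 38 H3K27ac peaks in TC-71, and 0 BORIS, 26 SMC1 and 33 H3K27ac peaks in TC-32. Whole BORIS lists held 534 peaks in TC-71 and 6 in TC-32.

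TC-71 and TC-32 are established Ewing sarcoma cell lines, labelled post-chemotherapy for TC-71 and diagnosis for TC-32. No treatment is named and the lines differ in origin, so therapy phase and line cannot be told apart. Crosslinked chromatin was precipitated with antibodies against BORIS, SMC1 or H3K27ac and sequenced beside input, 2 samples per line and antibody among 16 in all. BORIS (CTCFL) is the germ-line relative of CTCF, the factor that binds insulators. SMC1 belongs to cohesin, the ring that holds chromatin loops, and H3K27ac is an acetylation found on active promoters and enhancers. Both samples of a line and antibody share 1 list, so no value has a replicate error and no test between the lines could be made. Shares carry exact (Clopper-Pearson) 95% intervals, which speak of counting error and nothing else. The lists do not give read depth. The identity of the lines was not checked against marker genes, which these lists do not name.

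HOX genes encode transcription factors that set position along the body axis and the limbs, and their order on the chromosome follows the order of their expression domains. Posterior HOXD genes, HOXD13 to HOXD9, act in the distal limb, the genital region and the hind trunk, while HOXD4, HOXD3 and HOXD1 act further forward. In mouse limbs the cluster lies between a pair of regulatory landscapes, one on either side, with a boundary rich in CTCF and cohesin between them. Posterior HOXD genes, HOXD13 in particular, are known to be highly expressed in Ewing sarcoma. From the centromeric side, the order of protein-coding genes in the RefSeq table is ATP5MC3, LNPK, EVX2, HOXD13, HOXD12, HOXD11, HOXD10, HOXD9, HOXD8, HOXD4, HOXD3, HOXD1, MTX2, HNRNPA3 and NFE2L2. EVX2 is an even-skipped type homeobox gene, LNPK encodes an endoplasmic reticulum junction protein, and MTX2 encodes a mitochondrial outer membrane protein. That table is of GRCh38.p14 and the peaks are of hg19, so only the order was used, and no peak was assigned to a single gene. The posterior genes therefore lie towards the centromeric side of the row, and HOXD1 ends the HOXD row on its telomeric side. EVX2 comes before HOXD13 in this order. Whether peaks at the centromeric end of the gene interval lie nearer EVX2 or HOXD13 was not determined.

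Sequence of the peaks was not read, since no hg19 genome was used here. The promoters of the members are shown instead, because the HOXD genes lie in the gene interval and because cohesin and BORIS are known for CTCF-type sites. No promoter was placed against a peak, so none was shown to be acetylated. RefSeq gave the 250 bases before the start of 8 HOXD genes, all but HOXD9 (GRCh38.p14, chromosome 2, + strand). The members at both ends of the row and the one with most matches are printed, a choice made after the matches were counted. Capitals mark AGNNGGC on either strand, a short form of the CTCF consensus, and overlapping matches run together.
HOXD13: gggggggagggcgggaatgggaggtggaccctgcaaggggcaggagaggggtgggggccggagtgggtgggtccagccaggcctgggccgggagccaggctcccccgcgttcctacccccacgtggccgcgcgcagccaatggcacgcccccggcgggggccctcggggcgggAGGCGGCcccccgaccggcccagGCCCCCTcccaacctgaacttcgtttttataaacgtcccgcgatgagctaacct
HOXD8: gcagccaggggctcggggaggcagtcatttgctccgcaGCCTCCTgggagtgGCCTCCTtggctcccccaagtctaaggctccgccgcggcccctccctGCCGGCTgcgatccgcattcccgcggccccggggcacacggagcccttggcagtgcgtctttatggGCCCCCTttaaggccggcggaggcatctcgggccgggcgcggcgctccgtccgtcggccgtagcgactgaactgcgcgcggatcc
HOXD1: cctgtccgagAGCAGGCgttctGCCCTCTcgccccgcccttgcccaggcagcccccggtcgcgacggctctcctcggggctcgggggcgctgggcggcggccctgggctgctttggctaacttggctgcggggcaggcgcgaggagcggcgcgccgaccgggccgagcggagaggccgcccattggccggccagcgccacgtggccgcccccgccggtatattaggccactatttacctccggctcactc
The short form was present in 5 of the 8 HOXD promoters and in 57.5% of the 35116 RefSeq promoters of the same length, so it is common everywhere. HOXD8 held 4 matches, HOXD13, HOXD11 and HOXD1 held 2 each, HOXD10 held 1, and HOXD12, HOXD4 and HOXD3 held 0. The pentamer CCCTC was present in 7 of the 8 and in 66.6% of all promoters. GGAAGGAA, a tandem of the core bound by ETS factors, was present in 0 of the 8 and in 3.06% of all promoters. HOXD promoters were rich in CpG, with a median of 22 per promoter and a range of 4 at HOXD4 to 31 at HOXD1, beside a median of 11 over all promoters. A match is a description of letters and not a bound site.

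Acetylation of the HOXD gene interval was wider in TC-71 than in TC-32, against the direction of the lists as a whole. H3K27ac covered 31.9 kb of the interval in TC-71 (26.6% of its bases, 10 domains) and 19.8 kb in TC-32 (16.5%, 7 domains), a ratio of 1.61. Over the rest of chromosome 2 the covered share was 1.28% in TC-71 and 2.12% in TC-32, a ratio of covered bases of 0.606. Over chromosomes 1 to 22 and X the ratio was 0.653. The centromeric flank had 16.4 kb in TC-71 and 11.8 kb in TC-32, a ratio of 1.39. Its outermost 100 kb held 11.5 kb of this in TC-71 and 6.80 kb in TC-32. In other steps of 100 kb TC-71 had 0.717 and 4.20 kb where TC-32 had 0 and 1.62 kb. In another, TC-71 had 0 kb where TC-32 had 3.41 kb. In the telomeric flank the order turned round, with 21.0 kb in TC-71 and 30.9 kb in TC-32, a ratio of 0.680 that is near that of the chromosome. Copy number of the region in either line was not analysed here.

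**Figure D1:**
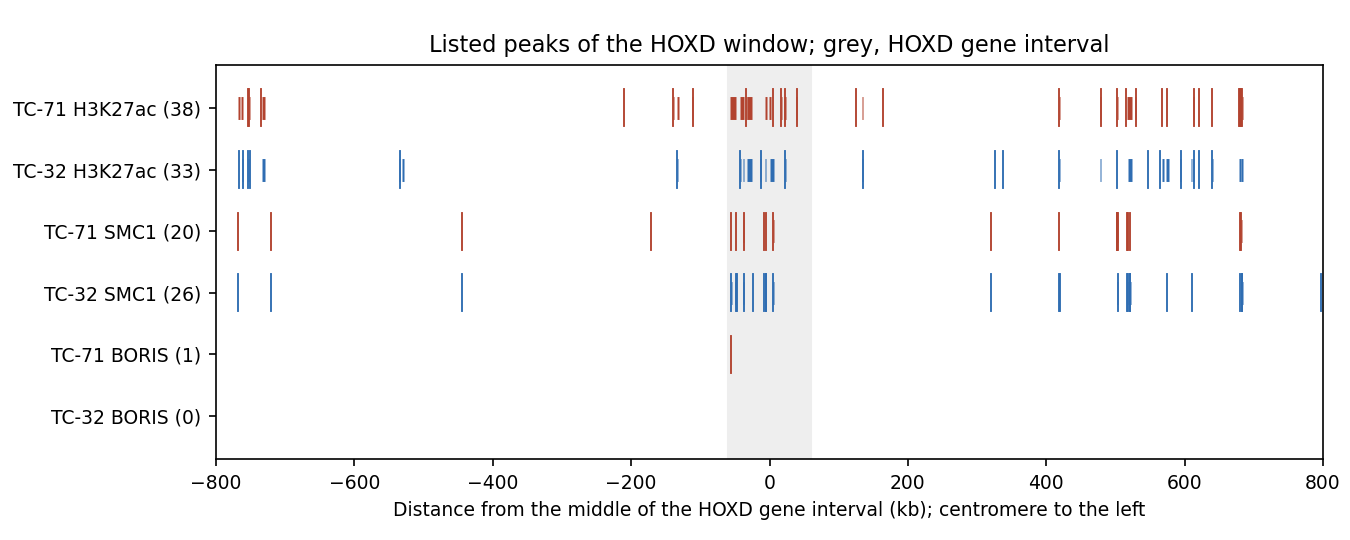
Listed H3K27ac, SMC1 and BORIS peaks of TC-71 and TC-32 by distance in kb from the middle of the HOXD gene interval (grey), with the number per list in brackets; intervals under 2 kb are drawn as a line of fixed width. Peaks gather in the gene interval, at the outer end of the centromeric flank and in the outer part of the telomeric flank, with long empty stretches between them.

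The acetylated domains of the gene interval lay mostly on its centromeric side, the side of EVX2 and HOXD13. Before the middle of the interval 24.7 kb were acetylated in TC-71 and 13.3 kb in TC-32, and beyond the middle 7.22 kb in TC-71 and 6.50 kb in TC-32. Fold enrichment is the authors' value for a peak over input. Folds of both lines are printed side by side, but a difference between lists is not read as a difference in strength, because read depth is unknown. In TC-71 the domain nearest the centromere was chr2:176943533-176951012, 7480 bp wide, with a fold of 4.58 and a −log10 q above that of 70.8% of the TC-71 list. It is the widest domain of the window in TC-71, and TC-32 listed no domain that overlaps it. The nearest TC-32 domain began at 176957302.

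Next came TC-71 chr2:176956799-176962790, 5992 bp wide with a fold of 5.94. In TC-32 the same stretch was listed as separate domains, chr2:176957302-176958569 with a fold of 4.45 and chr2:176961093-176963132 with a fold of 5.61. The gap between these was acetylated in TC-71 alone. The following domain was nearly the same in both lines, chr2:176968088-176974263 in TC-71 (fold 6.32) and chr2:176968064-176974358 in TC-32 (fold 7.12). Its −log10 q stood above 88.3% of the TC-71 list and 91.9% of the TC-32 list, and it is the highest-ranked TC-32 domain of the window. A narrow TC-71 domain just before it, chr2:176965874-176966850 (fold 2.74), had no TC-32 counterpart.

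Towards the middle of the interval, TC-32 alone listed chr2:176986683-176988275 (fold 4.42), its single domain of the interval without a TC-71 overlap. Domains at chr2:176992778-176996479 in TC-71 (fold 5.67) and chr2:176993452-176995600 in TC-32 (fold 4.73) overlapped. The highest-ranked TC-71 domain of the window was chr2:176999605-177002045, with a fold of 7.77 and a −log10 q above 94.8% of its list. TC-32 listed a longer domain there, chr2:177000322-177006004 (fold 6.37), which also took in the TC-71 domain chr2:177005209-177005772 (fold 4.01).

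The telomeric end of the interval, where the row of genes ends with HOXD1, held little acetylation in either line. TC-71 listed chr2:177016367-177018161 (fold 4.35), chr2:177021513-177023223 (fold 4.53) and chr2:177038959-177040061 (fold 3.08). TC-32 listed chr2:177022397-177023217 (fold 2.99), which overlapped the second of these. No listed domain of either line reached the last stretch of the interval beyond 177040061.

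**Figure D2:**
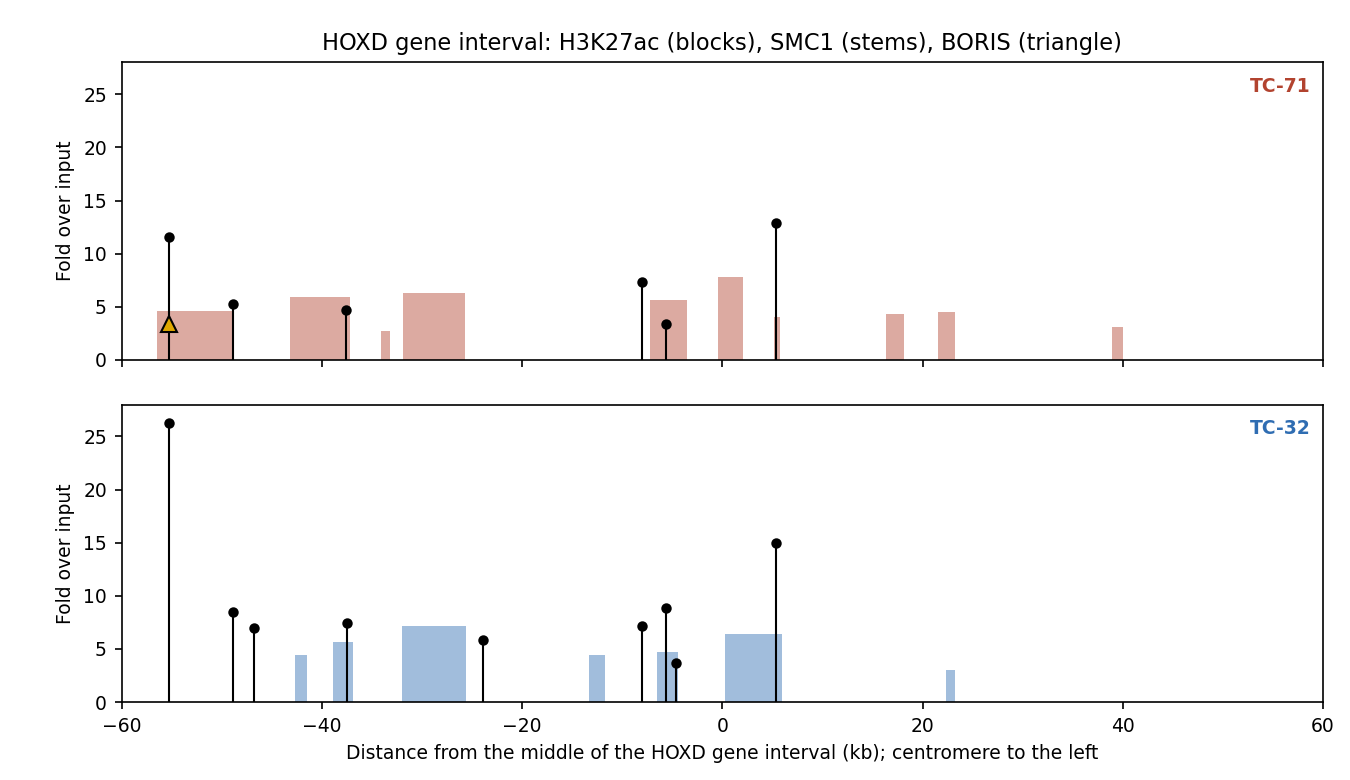
H3K27ac domains (blocks), SMC1 summits (stems) and the BORIS summit (triangle) in the HOXD gene interval, TC-71 above TC-32, by distance in kb from its middle and by the authors' fold enrichment over input. The TC-71 block at the left edge lies at the SMC1 and BORIS summits and has no TC-32 counterpart, while the tallest SMC1 stems stand at the same places in both lines.

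By bases, 14.4 kb of the gene interval were acetylated in both lines, 17.5 kb in TC-71 alone and 5.45 kb in TC-32 alone. The shared part was 45.1% of the TC-71 bases and 72.5% of the TC-32 bases. In the telomeric flank it was 72.2% of the TC-71 bases and 49.1% of the TC-32 bases, so TC-71 had most of the line-specific bases in the gene interval and TC-32 in the telomeric flank.

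SMC1 was listed in the gene interval at 6 sites in TC-71 and 9 in TC-32, covering 1.25% of its bases in TC-71 and 2.81% in TC-32, beside 0.110% in TC-71 and 0.279% in TC-32 over the rest of chromosome 2. All 6 TC-71 sites overlapped a TC-32 site (100%, interval 54.1 to 100%), beside 90.3% of the whole TC-71 list. Of the TC-32 sites, 6 of 9 overlapped a TC-71 site (66.7%, 29.9 to 92.5%), beside 50.3% of the whole TC-32 list. Both whole-list shares lay within these intervals. The highest-ranked site of the window in each line stood at the centromeric end. It was chr2:176944576-176944909 in TC-71, with a fold of 11.6 and a −log10 q of 49.5 that ranked 626 of 18264. In TC-32 it was chr2:176944563-176945177, with a fold of 26.3 and a −log10 q of 142 that ranked 105 of 32720.

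A strong site also stood in the middle of the cluster, with summits at 177005378 in TC-71 and 177005389 in TC-32. It ranked above 95.2% of the TC-71 list (fold 12.9) and above 94.1% of the TC-32 list (fold 15.0), and each list gave it 2 summits. The summits of these high sites were 60.6 kb apart in both lines. Between them lay 80.4% of the acetylated bases of the gene interval in TC-71 (25.7 kb) and 92.8% in TC-32 (18.4 kb). Between the sites H3K27ac covered 42.4% of the bases in TC-71, beside 30.4% in TC-32. On the telomeric side of both it covered 9.16% in TC-71, beside 2.63% in TC-32. On the centromeric side a short stretch of the interval remained, 4.78 kb in TC-71 and 4.76 kb in TC-32. There it covered 26.0% in TC-71 and 0% in TC-32, as a TC-71 domain ran across the centromeric site. The cluster was divided at these sites after their values were seen.

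Weaker sites lay between the high ones. Those listed in both lines had TC-71 summits at 176951148, 176962467, 176991977 and 176994386, with folds of 5.28, 4.72, 7.37 and 3.40 in TC-71. The overlapping TC-32 peaks had folds of 8.50, 7.42, 7.14 and 8.85. TC-32 alone listed chr2:176953059-176953327 (fold 6.92), chr2:176975993-176976214 (fold 5.83) and chr2:176995278-176995542 (fold 3.68). These ranked above 69.1%, 41.5% and 6.59% of the TC-32 list, so they ran from the upper part of that list to its low end.

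Across the whole window 18 pairs of SMC1 peaks overlapped between the lines, and their summits were a median of 13.0 bp apart, with 16 pairs within 50 bp. Overlap of such short peaks itself keeps their summits near each other. Of the TC-71 SMC1 peaks of the window, 18 of 20 overlapped a TC-32 peak (90.0%, 68.3 to 98.8%), beside 90.3% of the whole TC-71 list. Of the TC-32 peaks, 17 of 26 overlapped a TC-71 peak (65.4%, 44.3 to 82.8%), beside 50.3% of the whole TC-32 list. Here too the whole-list shares lay within the intervals.

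BORIS was listed once in the window, in TC-71, at the centromeric end of the gene interval. The peak was chr2:176944669-176944861, with a summit at 176944725, a fold of 3.39 and a −log10 q of 3.35. It was a weak entry, ranked 505 of 534 and below the list's median fold of 5.98, and it was no longer listed with a −log10 q of at least 5. TC-32 had 0 BORIS peaks on chromosome 2. Its BORIS list held only 6 peaks over all chromosomes, beside 534 in TC-71. With so short a list, the lack of a TC-32 peak here was not read as a difference between the lines. The BORIS summit was 52 bp from the summit of the highest-ranked TC-71 SMC1 site of the window and 39 bp from that of TC-32. It lay inside the TC-71 domain chr2:176943533-176951012, and the nearest TC-32 domain was 12577 bp away.

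The BORIS site thus had SMC1 in both lines and H3K27ac in TC-71 alone. Of the 534 TC-71 BORIS sites, 312 had SMC1 in both lines, 34 had H3K27ac in TC-71 alone, and 19 had both features (3.56%). In the window, 1 of 20 TC-71 SMC1 peaks and 1 of 38 TC-71 domains held BORIS, beside 1.87% and 1.14% of the whole lists. The TC-71 domain was still listed at this site with a −log10 q of at least 5. That limit and lists of equal length only remove domains, so neither could have added one to the TC-32 list here. Its telomeric edge was 136 bp from the summit of the next SMC1 site, at 176951148. In TC-32 that site had its summit at 176951141, and the nearest acetylated base was 6161 bp away.

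Cohesin and acetylation met often in the window. In TC-71, 11 of 20 SMC1 peaks overlapped a TC-71 domain (55.0%, 31.5 to 76.9%), beside 13.6% of the whole list. In TC-32, 15 of 26 overlapped a TC-32 domain (57.7%, 36.9 to 76.6%), beside 25.9%. The summit itself lay inside a domain for 9 of 20 in TC-71 and 12 of 26 in TC-32. Both whole-list shares lie below the intervals, though peaks of 1 window share their surroundings and are not independent draws. The window was also richer in acetylation than the chromosomes as a whole. H3K27ac covered 4.33% of its bases in TC-71, beside 1.41% over chromosomes 1 to 22 and X. In TC-32 it covered 3.91%, beside 2.15%. Whether the shares exceed what this density gives was not tested. By part of the window the numbers were small. In TC-71 the share was 0 of 4 in the centromeric flank (0 to 60.2%). In the gene interval it was 4 of 6 (22.3 to 95.7%), and in the telomeric flank 7 of 10 (34.8 to 93.3%). TC-32 had, in this order, 0 of 3 (0 to 70.8%), 4 of 9 (13.7 to 78.8%) and 11 of 14 (49.2 to 95.3%). Within each line the intervals of the parts overlap. Every TC-71 SMC1 summit of the gene interval was within 801 bp of a TC-71 domain, while TC-32 summits were up to 12538 bp from a TC-32 domain. Seen from the domains, 7 of 38 in TC-71 overlapped SMC1 (18.4%, 7.74 to 34.3%), beside 8.84% of the whole list. In TC-32, 10 of 33 did (30.3%, 15.6 to 48.7%), beside 19.1%. From this side both whole-list shares lay within the intervals.

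The centromeric flank had few peaks and most of them stood at its outer end. A group of TC-71 domains was led by chr2:176266945-176270422 (fold 4.74) and chr2:176235423-176239393 (fold 4.45). TC-32 listed the first at chr2:176266633-176270173 (fold 4.70), and at the second only the short chr2:176238174-176238572 (fold 2.94). The same group held chr2:176232031-176234433 (fold 3.70) and chr2:176245871-176246409 (fold 3.49) in TC-71, and chr2:176248517-176248886 (fold 3.61) in TC-32. SMC1 stood beside this group in both lines, with summits at 176231680 and 176279809 in TC-71 and 176231693 and 176279796 in TC-32. These SMC1 sites lay outside the acetylated stretch on either side of it.

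A long stretch with little acetylation followed. No TC-71 domain was listed for 519 kb, from 176270423 to 176789541. TC-32 had domains within it at chr2:176464858-176465946 (fold 3.80) and chr2:176469239-176471557 (fold 3.96), its only domains of the flank without a TC-71 overlap. Both lines listed 2 SMC1 sites in this stretch, the one with summits at 176279809 in TC-71 and 176279796 in TC-32, near its start, and another far from any domain. The distant site was chr2:176554933-176555137 in TC-71 (fold 11.7) and chr2:176554874-176555203 in TC-32 (fold 18.2). It ranked above 81.7% of the TC-71 list and 92.2% of the TC-32 list, and the nearest domain lay 234508 bp off in the TC-71 list. In the TC-32 list it lay 83479 bp off. TC-71 alone also listed SMC1 at chr2:176829072-176829215 (fold 4.71), above only 8.91% of its list. It was the TC-71 site nearest the gene interval on this side, at 111 kb, while the nearest TC-32 site was 385 kb away.

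Close to the gene interval both lines listed a strong domain, chr2:176865828-176868904 in TC-71 (fold 4.48) and chr2:176866096-176867713 in TC-32 (fold 4.91). It ranked highest of the TC-32 domains in this flank, above 77.1% of the list. TC-71 had further domains on this side with no TC-32 overlap, such as chr2:176860768-176861477 (fold 3.19), chr2:176888585-176888997 (fold 2.95) and chr2:176789542-176790258 (fold 3.39). All of these were near the lower end of the TC-71 list, above at most 15.3% of it.

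**Figure D3:**
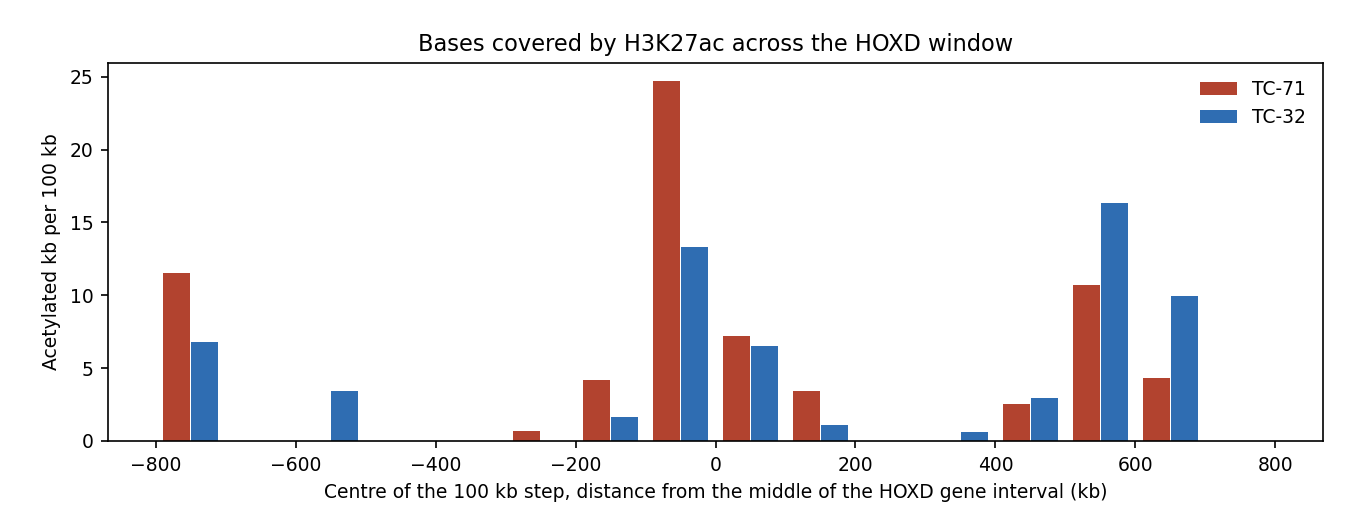
Kb covered by H3K27ac in each step of 100 kb across the window, TC-71 (left bars) and TC-32 (right bars), by the distance of the step's centre from the middle of the HOXD gene interval. TC-71 stands higher in the step that holds the centromeric end of the gene interval, at 24.7 kb against 13.3 kb in TC-32, and lower in the steps at 550 and 650 kb, at 10.7 and 4.29 kb against 16.3 and 9.93 kb.

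A stretch of 314 kb without SMC1 in either line, from 177005831 to 177319717, ran from inside the gene interval into the telomeric flank. The first SMC1 site of the flank was 260 kb from the gene interval in both lines. In the part of the stretch that lies in the flank stood a domain listed in both lines, chr2:177133033-177135495 in TC-71 (fold 5.36) and chr2:177133882-177135015 in TC-32 (fold 4.90). It ranked above 78.8% of the TC-71 list and 78.9% of the TC-32 list. TC-71 alone had weak domains at chr2:177125177-177125679 (fold 3.17) and chr2:177163533-177164006 (fold 3.35). The SMC1 site that ended the stretch had its summit at the same base, 177319843, in both lines, and lay outside acetylated domains. It ranked above 94.7% of the TC-71 list (fold 9.30) and 95.9% of the TC-32 list (fold 16.4). The TC-71 domain nearest to it was 98743 bp away, and the TC-32 one 6220 bp away. TC-32 alone listed chr2:177326063-177326296 (fold 3.17) and chr2:177337138-177337506 (fold 2.93).

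Further out, cohesin and acetylation lay together in both lines. At chr2:177418586-177419273 in TC-71 (fold 3.62) and chr2:177418622-177419317 in TC-32 (fold 2.95) a short domain had SMC1 at its edges. TC-71 SMC1 ended where the domain began, and TC-32 added chr2:177419191-177419478 (fold 10.6), its highest-ranked SMC1 peak of the window without a TC-71 overlap. The domain at chr2:177501984-177503939 was the highest-ranked TC-71 domain of the flank (fold 6.18), above 86.8% of the list. In TC-32 it was listed as chr2:177502435-177502908, 474 bp wide with a fold of 3.73. SMC1 stood there at 177503060 in TC-71 (fold 10.5) and 177503063 in TC-32 (fold 11.5).

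The widest domain of the flank was chr2:177517331-177524114 in TC-71 (fold 5.32) and chr2:177517526-177524203 in TC-32 (fold 5.44). It held SMC1 at 177518783 and 177521385 in TC-71 and at 177518787, 177520995 and 177521407 in TC-32, with another site at its centromeric edge, 177517267 in TC-71 and 177517247 in TC-32. Beyond it the lines differed. TC-32 listed chr2:177573426-177576726, 3301 bp wide with a fold of 5.47, its highest-ranked domain of the flank, above 83.0% of the list, with SMC1 at 177574641 (fold 6.37). TC-71 listed 661 bp there, chr2:177574081-177574741 (fold 2.94), and no SMC1.

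TC-32 also listed domains without a TC-71 overlap at chr2:177593677-177595425 (fold 3.56), chr2:177608502-177610786 (fold 3.34), chr2:177547265-177547579 (fold 3.04) and chr2:177564143-177564806 (fold 3.03). SMC1 was listed in the second of these in TC-32 alone, at 177610253 (fold 4.35). The last acetylated group stood at chr2:177677986-177680933 and chr2:177681992-177684325 in TC-32 (folds 2.97 and 3.19), which TC-71 listed as 4 shorter domains with folds of 3.11 to 3.64, led by chr2:177679890-177680600. In TC-32 these domains held SMC1 summits at 177679644, 177682207 and 177683578. The TC-71 summits, at 177679573 and 177682210, lay 317 and 61 bp from the nearest TC-71 domain.

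The share of domains found in both lines was read against the whole lists. Of the TC-71 domains of the window, 26 of 38 overlapped a TC-32 domain (68.4%, 51.3 to 82.5%), beside 67.3% of the whole list. Of the TC-32 domains, 24 of 33 overlapped a TC-71 domain (72.7%, 54.5 to 86.7%), beside 47.1%. The TC-71 share was near its background, and the background of the TC-32 list lay below the interval of the TC-32 share. With at least 50% of the domain covered the TC-71 share was 44.7%, and the whole-list share under that rule was not computed. In the gene interval the 4 listed in TC-71 alone had a median fold of 3.71 and covered 11.4 kb, with a median −log10 q above 50.9% of the list. The centromeric flank had 4 such domains with a median fold of 3.07 and 2.01 kb, and the telomeric flank 4 with a median fold of 3.25 and 1.89 kb. Listed in TC-32 alone were 2 domains of the centromeric flank, 1 of the gene interval and 6 of the telomeric flank, with median folds of 3.88, 4.42 and 3.10.

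**Figure D4:**
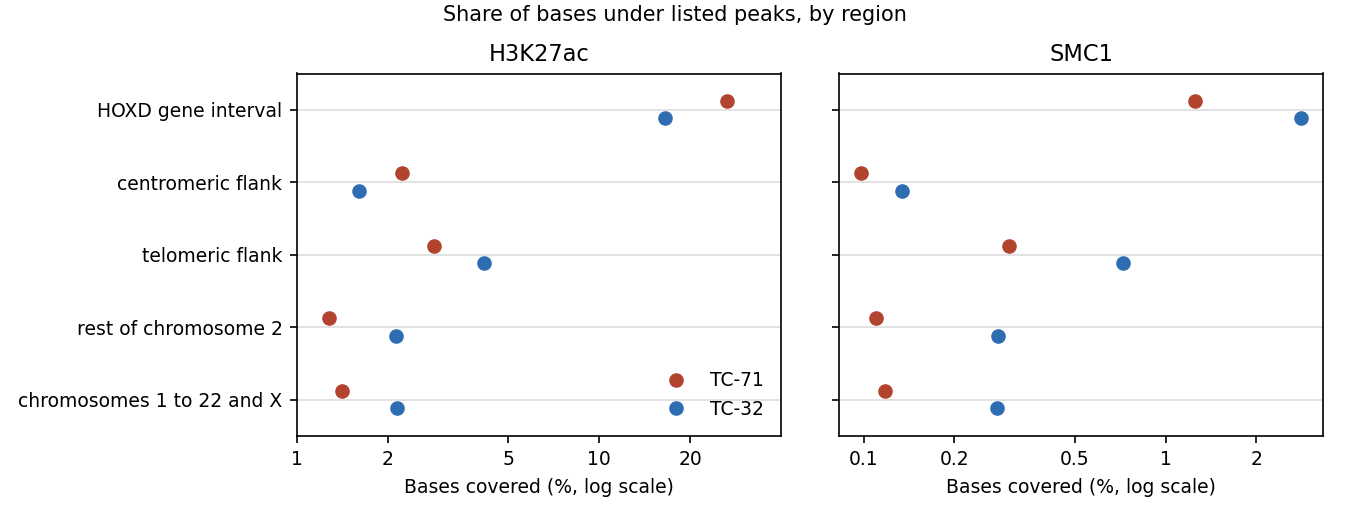
Percent of bases under listed H3K27ac domains (left) and SMC1 peaks (right) on log axes, for the HOXD gene interval, both flanks, the rest of chromosome 2 and chromosomes 1 to 22 and X, in TC-71 and TC-32. For H3K27ac, TC-71 stands right of TC-32 in the gene interval and the centromeric flank and left of it elsewhere, while for SMC1 it stands left of TC-32 in every row.

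Neighbouring domains were stitched over the gap customary for super-enhancers in the ROSE method, and the clusters ranked within each line by length times fold. In TC-71 the cluster chr2:176943533-176974263, 30.7 kb long with 4 domains, ranked 112 of 16831. A second TC-71 cluster, chr2:176992778-177023223 with 5 domains, ranked 446, and another in the telomeric flank, chr2:177501984-177529334 with 4 domains, ranked 570. All of these were among the 670 top clusters of TC-71, where the curve of score against rank turns steep. TC-32 had 1 top cluster in the window, chr2:176957302-177006004, 48.7 kb long with 6 domains, which ranked 206 of 22370. The TC-32 domain chr2:176986683-176988275 bridged the stretch that separates the first and second TC-71 clusters. With stitching within 5 kb TC-32 had 2 top clusters in the window, both in the gene interval, and TC-71 had 3. The TC-71 domain chr2:176943533-176951012 then stood alone at rank 996, just outside the 995 top clusters of TC-71.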

How the data were processed

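The authors deposited a peak list for every line and antibody, with the line's own input as background per the labels. BORIS and SMC1 are narrow peaks with summits and H3K27ac broad domains. The deposited columns are a score (10 times the −log10 q, without decimals), the fold enrichment (a ratio over input), and −log10 values of p and of q. The submitters' processing notes list MACS2 2.1.1, STAR 2.5.1b, deepTools 2.2.4, Picard, SAMtools 1.3.1 and, as genome, hg19, but neither what each did nor its settings. How the replicates of a list were joined is not stated in the labels.

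Narrow peaks with several summits were counted once, with the summit of highest −log10 q. Overlap meant at least 1 bp in common. Coordinates are hg19, counted from 1, with chromosome lengths from GenomeInfoDb 1.38.1. Named peaks were every BORIS peak, every peak of the gene interval, the 5 SMC1 peaks and 5 domains of highest −log10 q per line and flank, and the SMC1 peaks nearest the gene interval. Others were named after their values were seen, and the steps of 100 kb and the division at the high SMC1 sites were chosen then too. The window, its parts and the genes were chosen with earlier results of these data known. As alternatives, peaks were limited to a −log10 q of at least 5 or joined within 1 kb. Lists were cut to equal length by −log10 p, overlap was required over 50% of a peak, or SMC1 summits were allowed 500 bp from a domain. Domains were stitched within 5 kb, or the gene interval was widened by 20 kb at each end. Python 3.11.15, numpy 2.4.6, pandas 2.3.3 and scipy 1.17.1 were used. The overlap code was tested on 3000 simulated intervals and made 0 wrong calls.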

Additional observations from a re-analysis of the deposited data

How the results depend on the processing

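No paired analysis was possible because replicates of a line and antibody are joined in a single list, which also kept any replicate from being left out. Alternatives gave 59 values. Shares inside the reported interval, and counts or lengths less than 1.5 times apart, made up 52 of them, and the other 7 moved. A −log10 q of at least 5 left 0 BORIS peaks, 17 TC-71 domains and 18 TC-32 domains in the window. Lists of equal length put the share of TC-32 SMC1 peaks found in TC-71 at 83.3% and that of TC-71 domains found in TC-32 at 47.4%. With 50% of the domain covered the share of TC-71 domains found in TC-32 was 44.7%. Whole-list shares were not computed under either setting, so those given earlier are not a background for these values. The ratio of acetylated bases in the gene interval, TC-71 over TC-32, was 1.57 with a −log10 q of at least 5. It was 1.61 with lists of equal length and with the widened interval. Equal length can only shorten the TC-32 list, so it could not lower the ratio, and the widened interval took in no further domain. Stitching within 5 kb gave 2 top clusters in TC-32. Removing low-ranked peaks lowers counts by construction, and other causes were not tested. Read depth is unknown, so a peak missing from a list was not shown to be absent from the cells.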

Other observations

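The BORIS peaks of TC-71 nearest the window on chromosome 2 were stronger entries than the one inside it. On the telomeric side chr2:178128226-178128435 had a fold of 10.0 and a −log10 q of 24.2 and stood 328 kb beyond the window, with SMC1 and H3K27ac in both lines. On the centromeric side chr2:171785408-171785498 had a fold of 5.80 and a −log10 q of 8.88 and stood 4415 kb away. It had H3K27ac in both lines and SMC1 in TC-32 alone.

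Just outside the centromeric edge of the window SMC1 was listed in both lines, at chr2:176193919-176194105 in TC-71 (fold 7.58) and chr2:176193895-176194156 in TC-32 (fold 15.1), less than 6 kb from the edge. The first SMC1 peaks inside this edge had folds of 6.92 in TC-71 and 11 in TC-32. At the telomeric edge the last SMC1 peak inside was chr2:177682113-177682294 in TC-71 (fold 3.96) and chr2:177796650-177797280 in TC-32 (fold 4.37). The first ones outside were 214 kb beyond the edge in TC-71 (fold 7.48) and 212 kb in TC-32 (fold 6.60).

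H3K27ac domains nearest to the edges lay 153 kb outside the centromeric edge in both lines, with folds of 6.80 in TC-71 and 5.44 in TC-32. Outside the telomeric edge they lay at 213 kb in TC-71 (fold 3.39) and 124 kb in TC-32 (fold 2.83). Those just inside the edges had folds of 3.70 and 3.11 in TC-71, and of 2.69 and 3.19 in TC-32.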
